A study of Homo sapiens with 3 samples.

Results

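Mitochondrial ribosomal protein genes were followed in 3 cultures of the H460 line by single-cell RNA sequencing. All gene symbols made of MRPL or MRPS and a number, without a hyphen, were taken as members. They were 77 of the 18692 symbols in any of the 3 tables, 48 for the large subunit (MRPL) and 29 for the small subunit (MRPS), and each was listed in all 3 tables. No pseudogene symbol met the rule. H460 is a cell line derived from a human large-cell lung carcinoma. The cultures were the parental H460, mdR-H460 (mid-term dR-H460) and ldR-H460 (long-term dR-H460). The labels' protocols describe reprogrammed cancer cells raised on a layer of gamma-irradiated human fibroblasts in conditioned Pluriton medium. The sample descriptions carry a different code for each culture, and what the codes stand for is not stated. The sources used here therefore do not give what sets mid-term and long-term apart.

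The mitochondrial ribosome translates the few proteins encoded by mitochondrial DNA, all of them subunits of the respiratory chain and ATP synthase. Its rRNAs come from mitochondrial DNA, whereas its proteins are encoded in the nucleus, translated in the cytosol and imported. Many of these proteins have a bacterial homologue, and others are found only in mitochondrial ribosomes. The genes are expressed in nearly every tissue.

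With 1 library per culture there was no test between cultures and no replicate check, and ratios describe pairs of libraries. Unless named otherwise, 3 values in a row are for H460, mdR-H460 and ldR-H460 in that order. H460, mdR-H460 and ldR-H460 held 4531, 5151 and 4956 cells with 66192074, 66624830 and 60468481 UMIs. Median UMIs per cell were 14685, 11736 and 12342.5. Mitochondrially encoded transcripts took 4.80%, 5.21% and 6.80% of UMIs. Pairs of libraries shared 24 to 36 cell barcodes and no barcode was in all 3. Levels are CPM, in which a gene's UMIs are divided by the UMI total of the library and multiplied by 1 constant. One 3′ tag is counted per captured molecule, so CPM was not divided by gene length. Ranges in parentheses after a fold are 95% intervals for counting error only.

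Epithelial markers were divided. The keratin KRT18 had 1079, 1755 and 1203 CPM and KRT8 had 459, 625 and 494, while KRT19 went from 1696 CPM in H460 to 194 in mdR-H460 and 40.3 in ldR-H460. EPCAM, a surface marker of epithelium, was near 0 at 0.347, 0.270 and 0.132 CPM, and CDH1 was not listed in any of the 3 tables analysed. Lung markers summed to at most 0.120 CPM. Of 10 fibroblast markers, which would show feeder cells, 6, 5 and 5 had UMIs, with summed levels of 15.2, 4.17 and 5.67 CPM. The highest in H460 were LUM (4.65, 0.135 and 0 CPM), FBLN1 (4.11, 1.11 and 0.992), COL1A1 (2.73, 2.16 and 1.14) and COL3A1 (2.42, 0.465 and 3.18). COL1A2 was at 0 in H460 and mdR-H460. Of 5 leukocyte markers 2 had UMIs, summing to 41.6, 28.1 and 7.57 CPM. Most came from CD68 (37.4, 26.6 and 5.89 CPM) and the rest from CD14 (4.18, 1.55 and 1.69 CPM).

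Promoters were read for the members because genes of this set are known to share binding motifs of a few general activators. RefSeq windows from 250 bases before to 50 after the start were found for 68 of the 77 members on GRCh38.p14, and both strands were searched. The letters CCGGAAG, bound by ETS factors such as GABP, were present in 28 of the 68 windows (41.2%), against 10.7% of 27305 windows and 22.8% of 5223 windows of genes at 10 CPM or more in these libraries. The letters AAGATGGCG, bound by YY1, were in 13 member windows (19.1%), against 1.85% of all and 4.96% of genes at that level. For NRF1, searched as GCGCA and GCGC with any 1 base between them, 8 members had a match (11.8%), against 6.28% of all and 13.9% at that level. The E-box CACGTG was in 6 (8.82%), against 7.43% and 11.05%. The last bases of the ETS letters equal the first of the YY1 letters, but among members no match of a motif overlapped a match of another.

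Promoters of 6 members are printed as the 250 bases before the RefSeq start, 5′ to 3′ on the gene's strand, which is the minus strand for all 6. MRPS34 (chr16:1773135-1773384) is shown for its 3 ETS matches and MRPL36 (chr5:1799838-1800087) for 1 NRF1 and 1 YY1 match. MRPS31 (chr13:40771191-40771440), MRPL24 (chr1:156741089-156741338), MRPL39 (chr21:25607482-25607731) and MRPS27 (chr5:72320241-72320490) are shown because they stood apart from the other members in the comparisons that follow. Capitals mark ETS, NRF1 or YY1 letters on either strand.
MRPS34: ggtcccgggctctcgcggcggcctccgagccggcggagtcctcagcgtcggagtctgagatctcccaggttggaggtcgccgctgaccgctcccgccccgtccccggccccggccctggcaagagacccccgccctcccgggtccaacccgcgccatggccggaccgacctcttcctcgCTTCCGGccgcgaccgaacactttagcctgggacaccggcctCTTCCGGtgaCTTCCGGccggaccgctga
MRPL36: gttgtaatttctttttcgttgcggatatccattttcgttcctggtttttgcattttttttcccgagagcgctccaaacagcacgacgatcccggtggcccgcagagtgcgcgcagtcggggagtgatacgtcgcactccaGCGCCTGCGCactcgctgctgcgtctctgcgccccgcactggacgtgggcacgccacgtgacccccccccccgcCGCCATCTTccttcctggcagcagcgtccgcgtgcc
MRPS31: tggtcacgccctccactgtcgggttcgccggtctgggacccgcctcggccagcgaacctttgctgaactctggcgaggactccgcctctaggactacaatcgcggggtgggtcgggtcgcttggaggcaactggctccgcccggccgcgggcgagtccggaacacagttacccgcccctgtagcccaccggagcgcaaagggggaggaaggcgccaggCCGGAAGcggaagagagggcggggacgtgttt
MRPL24: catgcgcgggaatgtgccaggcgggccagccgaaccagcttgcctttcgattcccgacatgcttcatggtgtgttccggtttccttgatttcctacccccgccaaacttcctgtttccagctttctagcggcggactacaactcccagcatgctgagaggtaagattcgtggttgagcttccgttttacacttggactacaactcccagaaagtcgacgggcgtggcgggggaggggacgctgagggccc
MRPL39: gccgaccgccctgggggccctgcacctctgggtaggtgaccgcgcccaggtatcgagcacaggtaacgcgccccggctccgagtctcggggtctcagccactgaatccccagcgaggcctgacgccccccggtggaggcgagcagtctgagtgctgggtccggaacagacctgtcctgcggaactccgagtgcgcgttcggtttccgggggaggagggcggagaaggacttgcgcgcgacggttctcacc
MRPS27: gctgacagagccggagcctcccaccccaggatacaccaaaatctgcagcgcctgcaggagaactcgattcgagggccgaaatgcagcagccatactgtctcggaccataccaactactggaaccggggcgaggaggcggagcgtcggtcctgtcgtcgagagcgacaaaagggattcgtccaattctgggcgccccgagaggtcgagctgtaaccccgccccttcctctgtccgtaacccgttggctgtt
The MRPS34 matches began 71, 29 and 19 bases before the start, and the MRPS31 match 32 bases before it. MRPL24, MRPL39 and MRPS27 had none of these letters in the window, which says nothing about whether a factor binds there.

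Member transcripts took about the same small share of every transcriptome. They summed to 10532 CPM in H460, 11314 in mdR-H460 and 10188 in ldR-H460, or 1.05%, 1.13% and 1.02% of UMIs. The 5 most abundant members of each library held 19.6%, 18.8% and 21.6% of these UMIs.

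MRPL41, a mitochondria-specific protein of the large subunit, was the most abundant member, with 535, 592 and 675 CPM. It was the highest member in each library. MRPL51, also specific to the mitochondrial large subunit, had 403, 469 and 410 CPM. MRPS21, the counterpart of bacterial S21, had 438, 380 and 393 CPM. The order of MRPL51 and MRPS21 differed between libraries. MRPS16, a counterpart of bacterial S16, had 337, 329 and 381 CPM. MRPL12, which forms the flexible stalk of the large subunit, was nearly level at 347, 334 and 339 CPM.

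The 3 least abundant members stayed under 10 CPM in every library and were left out of counts. MRPL38 had 1.43, 1.13 and 1.04 CPM from 95, 75 and 63 UMIs, and shares exon sequence on the same strand with AC087289.3. MRPS24 had 1.496, 3.12 and 2.98 CPM, and its exons are shared on the same strand with the read-through gene URGCP-MRPS24, so its reads may have been split or discarded. MRPL53 had 9.65, 8.41 and 7.92 CPM and shares exon sequence on the same strand with CCDC142. The other 74 members reached 10 CPM in the higher library of every pair.

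**Figure D1:**
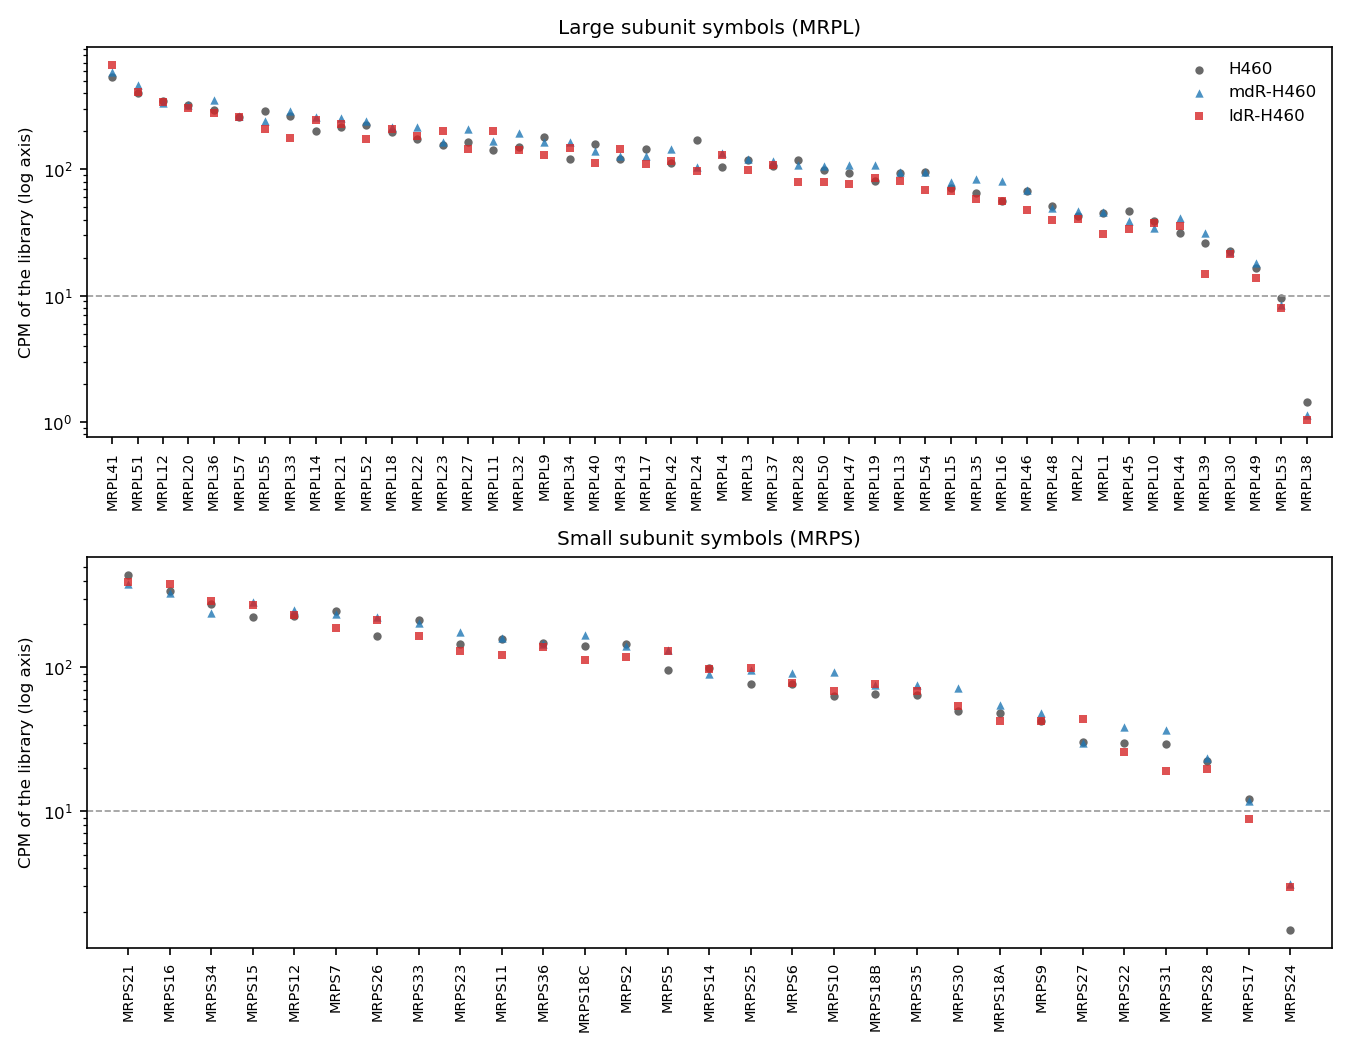
Level of each of the 77 members in CPM on a log axis, large subunit above and small subunit below, ordered by mean level, with 1 point per library and a dashed line at 10 CPM. The points of a member lie close together over a range from about 1 CPM (MRPL38) to 675 CPM (MRPL41), and MRPL24 and MRPL39 are among the members whose points separate.

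Between their highest and lowest library, 69 of the 74 members spanned under 1.5-fold, as did 59.6% of all 6641 genes that reached 10 CPM in any library, and the members' median span was 1.30-fold. With TMM factors in place of library totals 57 of 74 members did, against 59.3% of all genes. The highest level was in mdR-H460 for 47 members, in H460 for 18 and in ldR-H460 for 9, where 25.4%, 44.7% and 30.0% of all genes were highest. The lowest was in ldR-H460 for 39, in H460 for 28 and in mdR-H460 for 7, where 39.3%, 26.0% and 34.7% of all genes were lowest. With TMM factors mdR-H460 was highest for 59, H460 for 6 and ldR-H460 for 9, against 38.0%, 29.7% and 32.2% of all genes. The lowest library was then H460 for 39, ldR-H460 for 33 and mdR-H460 for 2, against 39.2%, 37.4% and 23.4%.

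Large and small subunit genes kept nearly the same ratio. Large subunit symbols took 65.1% (65.02 to 65.24) of member UMIs in H460, 65.5% (65.4 to 65.6) in mdR-H460 and 64.4% (64.3 to 64.5) in ldR-H460, with exact binomial intervals. The large-to-small ratio was 1.87, 1.90 and 1.81. On the log2 scale it differed by 0.02 (0.02 to 0.03) for mdR-H460 against H460, by -0.05 (-0.06 to -0.04) for ldR-H460 against H460 and by -0.07 (-0.08 to -0.06) for ldR-H460 against mdR-H460. These shifts, of 1.74%, -3.26% and -4.92%, exceed counting error, and their size relative to replicate spread is not known with 1 library per culture. Sums weigh abundant genes more. The median log2 ratio over genes leaned the other way in mdR-H460 against H460, at 0.12 for large and 0.19 for small subunit symbols. In both comparisons of ldR-H460 the medians leaned the same way as the sums.

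The symbol does not always name the place of the protein. MRPS30 and MRPS18A sit in the large subunit in structures of the mitochondrial ribosome, and MRPS36 is a subunit of the oxoglutarate dehydrogenase complex. MRPS30 had 49.3, 71.7 and 53.7 CPM, 1.45-fold (1.39 to 1.52) higher in mdR-H460 than in H460. Among the 74 members at 10 CPM or more that was the largest ratio above 1 in this pair, just under the 1.5-fold rule used for counts. MRPS18A had 48.0, 55.1 and 42.1 CPM. Its relatives in the small subunit, MRPS18B and MRPS18C, had 64.8, 74.9 and 76.0 CPM and 140, 167 and 112 CPM. MRPS18C was 1.49-fold (1.44 to 1.53) lower in ldR-H460 than in mdR-H460, while MRPS18B was level between them. MRPS36 had 147, 145 and 139 CPM. With MRPS30 and MRPS18A counted as large and MRPS36 left out, the large-to-small difference of ldR-H460 against mdR-H460 was -0.08.

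In mdR-H460 against H460, most members were slightly higher and 1 was clearly lower. The ratio was above 1 for 53 of 74 members and below 1 for 21, where 40.9% of all 6402 genes at 10 CPM or more were higher and 59.1% lower. The median log2 ratio was 0.13 over members and -0.10 over all genes. No member was at least 1.5-fold higher, as 4.61% of all genes were, and 1 was at least 1.5-fold lower, as 17.2% were. At a smaller threshold, a log2 difference of at least 0.32, 18 members were higher and 1 lower, against 13.3% and 31.7% of all genes.

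MRPL24, whose bacterial counterpart binds early in assembly of the large subunit, was the member at least 1.5-fold lower. Its level was 170 CPM in H460, 105 in mdR-H460 and 96.8 in ldR-H460, so both derivatives were low. It was 1.62-fold (1.57 to 1.67) lower in mdR-H460 than in H460. The next lowest ratio among the 74 was that of MRPL45, a large subunit protein near the exit of the nascent chain, at -0.28 on the log2 scale. After MRPS30, the highest ratios belonged to MRPS10 (63.7, 92.2 and 68.3 CPM) and MRPL16 (56.0, 80.7 and 56.1 CPM), counterparts of bacterial S10 and L16. Both were high in mdR-H460 and near the H460 level in ldR-H460. With TMM or DESeq2 factors 7 members were at least 1.5-fold higher and none lower, and the MRPL24 difference was -0.51 and -0.52 in place of -0.70. The all-gene median was then 0.08 with either set of factors, and the share of all genes past the rule was not counted.

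In ldR-H460 against H460, members were divided, and 4 large departures were all downward. The ratio was above 1 for 31 and below 1 for 43, where 40.0% of all 6556 genes were above 1 and 60.0% below. The member median was -0.08 and the all-gene median -0.12. At least 1.5-fold lower were 4 of 74 members, where 18.9% of all genes were, and none was at least 1.5-fold higher, where 8.57% were. At a log2 difference of at least 0.32, 8 were higher and 19 lower, against 18.2% and 34.4%.

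MRPL39, a mitochondria-specific large subunit protein, had 26.3 CPM in H460, 31.4 in mdR-H460 and 14.8 in ldR-H460. It was low in ldR-H460 alone, 1.78-fold (1.64 to 1.93) under H460. MRPL24 followed at 1.76-fold (1.70 to 1.81) lower. MRPS31, a mitochondria-specific small subunit protein, had 29.3, 36.6 and 18.9 CPM, and was 1.55-fold (1.44 to 1.67) lower in ldR-H460 than in H460. MRPL28, the counterpart of bacterial L28, had 118, 109 and 78.7 CPM. It lies just inside the 1.5-fold rule, at -0.59 on the log2 scale, with a counting interval of 1.45-fold to 1.56-fold lower. MRPL33, the counterpart of bacterial L33, lies just outside it at 1.48-fold lower (1.45 to 1.52). Part of the MRPL28 exon sequence is shared on the same strand with TMEM8A, and part of that of MRPL33 with BABAM2. With TMM factors MRPS31 was at -0.51 and MRPL28 at -0.47 on the log2 scale, so that 2 members were at least 1.5-fold lower. The share of all genes with that scaling was not counted.

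MRPS27, a pentatricopeptide repeat protein of the small subunit, had the highest ratio in ldR-H460 among the 74 members at 10 CPM or more. It had 30.1 CPM in H460, 30.0 in mdR-H460 and 43.4 in ldR-H460, 1.44-fold (1.36 to 1.53) above H460 and 1.45-fold (1.36 to 1.53) above mdR-H460. MRPL11, which lies at the base of the large subunit stalk, had 143, 167 and 203 CPM and was 1.42-fold (1.38 to 1.46) above H460 in ldR-H460. It was higher in each derivative than in H460. MRPS5, a counterpart of bacterial S5, had 96.3, 131 and 130 CPM, but shares same-strand exon sequence with ZNF514. With TMM factors MRPS27 was 0.65 above H460 on the log2 scale and past the 1.5-fold rule. On the opposite strand MRPS27 shares exon sequence with PTCD2 and MRPL11 with PELI3, and the sources used here do not give whether the counting used strand.

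In ldR-H460 against mdR-H460, the members were lower nearly throughout. The ratio was below 1 for 61 of 74 members and above 1 for 13, where 49.6% of all 6189 genes were below 1 and 50.4% above. The member median was -0.24 and the all-gene median 0.00. At least 1.5-fold lower were 3 members, where 10.1% of all genes were, and none was at least 1.5-fold higher, where 8.92% were. At the threshold of 0.32 on the log2 scale, 28 members were lower and 1 higher, against 22.6% and 23.9% of all genes. MRPL39 was 2.12-fold (1.96 to 2.30) lower, MRPS31 1.93-fold (1.801 to 2.08) and MRPL33, at 263, 288 and 177 CPM, 1.62-fold (1.59 to 1.66). The single member past that threshold upward was MRPS27. MRPL39, MRPS31 and MRPL33 were each highest in mdR-H460 and lowest in ldR-H460. This pair shares mdR-H460 with the first comparison and ldR-H460 with the second, so their values are not independent.

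The member median minus the all-gene median, both as log2 ratios, was 0.23 in mdR-H460 against H460, 0.05 in ldR-H460 against H460 and -0.24 in ldR-H460 against mdR-H460. TMM factors moved the all-gene median to 0.08, -0.01 and -0.06 in the same order, and the member median to 0.32, 0.04 and -0.30. The direction of the member median in ldR-H460 against H460 therefore changed with the scaling. Its position relative to all genes could not change under TMM or DESeq2 factors. A single factor per library moves every log2 ratio of a pair by the same amount, so it cancels in that difference.

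**Figure D2:**
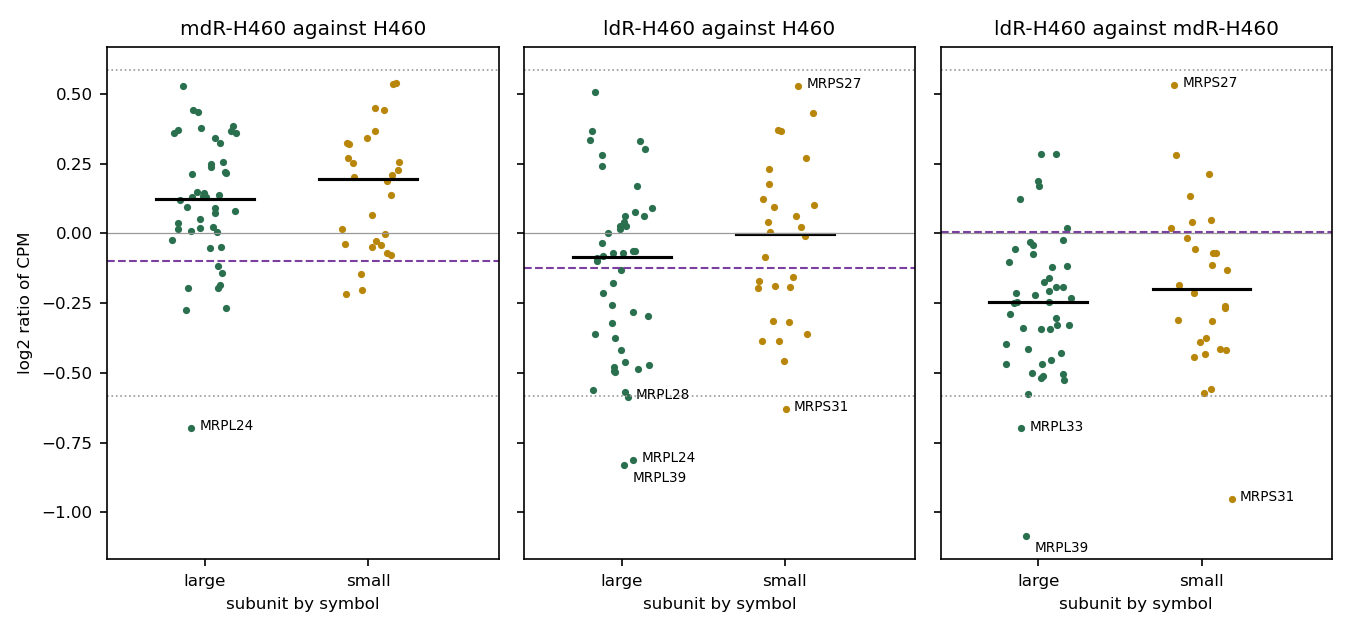
Log2 ratio of CPM for the 74 members at 10 CPM or more in each pair of libraries, by subunit symbol, with black bars at the subunit medians, a dashed purple line at the all-gene median and dotted lines at 1.5-fold. Large and small subunit medians lie together in each panel (0.12 and 0.19, -0.09 and -0.00, -0.25 and -0.20), and named points lie 1.5-fold from 1 or from the member median.

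Large subunit genes were also divided by origin. The 17 mitochondria-specific large subunit genes had a median log2 ratio of -0.32 in ldR-H460 against H460, and the 29 with a bacterial homologue -0.07. The 10 mitochondria-specific small subunit genes had -0.05 and the 15 with a bacterial homologue 0.00. For mdR-H460 against H460 the 4 medians were 0.09, 0.13, 0.25 and 0.14 in that order. For ldR-H460 against mdR-H460 they were -0.30, -0.24, -0.20 and -0.19. In ldR-H460 against H460 the quartile ranges of the large subunit classes overlapped, at -0.47 to 0.03 (mitochondria-specific) and -0.28 to 0.06 (bacterial homologue). These classes were compared with no test.

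Measured from the member median, 1 member was at least 1.5-fold away in mdR-H460 against H460 (MRPL24) and 3 were in each comparison of ldR-H460, against 20.5%, 26.8% and 18.9% of all genes from their own median. MRPL24 and MRPL39 were below the member median and MRPS27 above it against H460. Against mdR-H460, MRPL39 and MRPS31 were below and MRPS27 above.

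Member UMIs also varied with the called cell cycle phase. G1 calls made up 34.4%, 36.1% and 15.7% of cells, so the libraries differ in called phase. Each library was scored on its own, so a call need not mean the same in another library. S calls made up 40.3% of H460 and 46.1% of ldR-H460 cells, while 38 S phase genes had a median log2 ratio of -0.30 in that pair. G2/M calls made up 25.4% and 38.2%, and 50 G2/M genes had a median of 0.24. Summed member CPM in H460 was 9259 in G1, 11024 in S and 11109 in G2/M cells. In mdR-H460 the values were 8858, 12025 and 12109, and in ldR-H460 7509, 10758 and 10313. G1 cells were thus lowest in each library, and ldR-H460 was the lowest library in each phase. Summed member CPM also varied with cell depth. Cells from 1000 to under 5000 UMIs had 10080, 9069 and 8146 CPM, against 10537, 11385 and 10212 in cells at 5000 UMIs or more. Cells under 1000 UMIs had 11015, 11324 and 10235 CPM. Phases were not matched for depth, so how much of the low G1 level goes with depth was not tested. Among G1 cells mdR-H460 was under H460, by -0.06 on the log2 scale, where over all cells it was above by 0.10. In G1 cells 18 of 74 members were at least 1.5-fold lower in ldR-H460 than in H460, where 28.7% of all 6415 genes at 10 CPM or more in these cells were. Against mdR-H460 16 of 73 members were lower in ldR-H460, where 18.6% of all 6077 genes were. Neither count is far from the share of all genes. In mdR-H460 against H460, 3 of 74 members were at least 1.5-fold lower in G1 cells, where 15.3% of all genes were. In the same cells the member median minus the all-gene median was 0.06 for mdR-H460 against H460, -0.08 for ldR-H460 against H460 and -0.14 for ldR-H460 against mdR-H460. The part of cycle phase in the differences over all cells was not tested further.

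**Figure D3:**
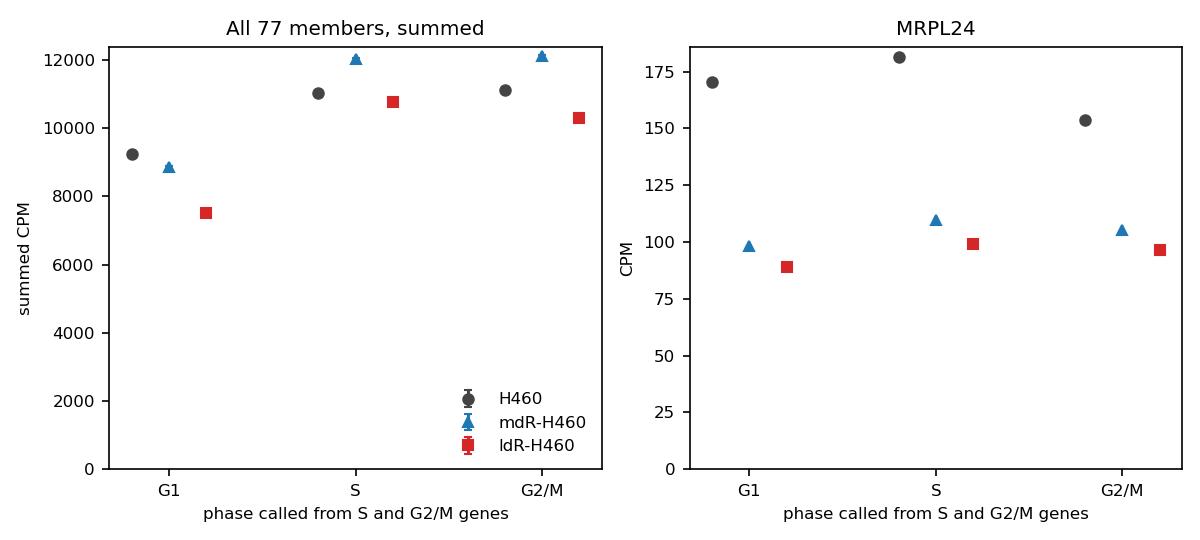
Summed CPM of the 77 members (left) and CPM of MRPL24 (right) in cells called G1, S and G2/M in each library, with 95% counting intervals on the left that are smaller than the points. Both derivatives lie under H460 for MRPL24 in every phase, and the summed level is lowest in G1.

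MRPL24 was low in both derivatives in every phase. In G1, S and G2/M cells it had 170, 181 and 154 CPM in H460, 98.3, 110 and 105 in mdR-H460, and 89.0, 99.2 and 96.4 in ldR-H460. No value of a derivative reached the lowest value of H460. MRPL39 had 22.2, 28.1 and 27.9 CPM in H460, 22.5, 33.6 and 34.4 in mdR-H460, and 12.1, 15.98 and 14.2 in ldR-H460. MRPS27 in ldR-H460 was above both other libraries in each phase, at 37.2, 46.1 and 42.1 CPM.

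For single cells, each was thinned at random to 5000 UMIs, which kept 3850, 3880 and 4521 cells. The median cell then had 52, 54 and 50 member UMIs. The SD over cells was 11.4, 13.7 and 12.3, where counting alone would give 7.19, 7.34 and 7.04. The median share of large subunit UMIs per cell was 65.4%, 66.0% and 64.7%. Cells therefore differed in member level by more than counting error in each library.

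Position on chromosomes was looked at after MRPL24 had been seen to stand apart. MRPL24 lies on GRCh38 at chr1:156737303-156741590, minus strand, in GENCODE 29 annotation. Of the 8 members on chromosome 1, 5 lie to the right of the longest stretch without an annotated gene, which runs from 121580524 to 143343180 around the centromere (MRPS21, MRPL9, MRPL24, MRPS14 and MRPL55), and all 5 were below H460 in both derivatives. Their log2 ratios against H460 were -0.20, -0.14, -0.70, -0.15 and -0.27 in mdR-H460 and -0.15, -0.49, -0.81, -0.01 and -0.47 in ldR-H460. The medians were -0.20 and -0.47. The other 311 genes with a matched position on that side of the gap, at 10 CPM or more, had medians of -0.54 and -0.55. Of them 90.0% and 84.6% were below H460. On the left of the gap 3 members (MRPL20, MRPS15 and MRPL37) had medians of 0.14 and 0.02, and the other genes -0.05 and -0.11. Chromosome copy number was not measured here, and no cause of the pattern was tested.

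Genes within 5 Mb of MRPL24 had a median log2 ratio of -0.46 in mdR-H460 (80 genes) and -0.59 in ldR-H460 (79 genes) against H460. Among its closest genes at that level, RRNAD1 had 13.7, 7.65 and 6.27 CPM and ISG20L2 had 38.9, 26.2 and 27.0, both low in the derivatives. HDGF, which lies 517 bases from MRPL24, went the other way with 146, 155 and 174 CPM. DAP3, a GTP-binding protein of the small subunit that does not carry an MRPS symbol, had 125, 113 and 89.0 CPM.

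MRPL39 (chr21:25585656-25607517, minus strand) had only 7 genes at that level with a matched position within 5 Mb, with a median of -0.42 in ldR-H460 against H460. MRPS31 (chr13:40729135-40771173, minus strand) had 14, with a median of -0.21, and MRPS27 (chr5:72219409-72320646, minus strand) 19, with -0.09. MRPL33 (chr2:27771717-27988087, plus strand) had 40, with -0.17, and MRPL28 (chr16:366969-371289, minus strand) 64, with -0.35. Over the 74 members, Pearson's r between a member's log2 ratio and the median of its neighbours was 0.55 for mdR-H460 against H460, 0.37 for ldR-H460 against H460 and 0.07 for ldR-H460 against mdR-H460 (Spearman's rho 0.43, 0.31 and 0.03). These points share libraries, and neighbouring members share neighbours, so the values are descriptions.

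**Figure D4:**
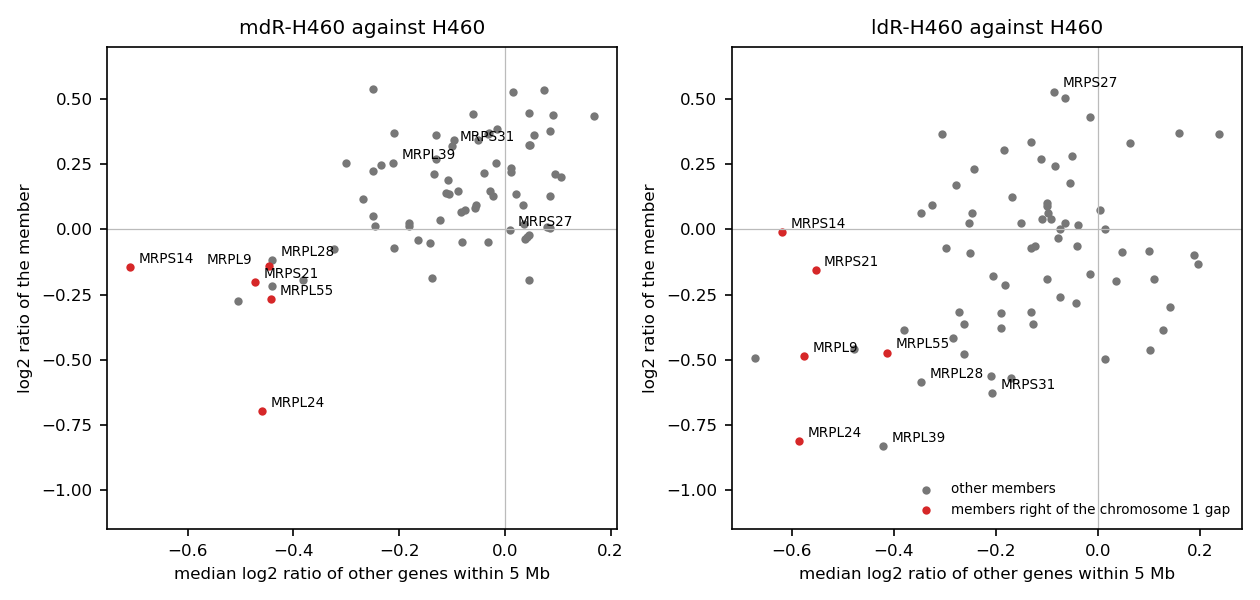
Log2 ratio of each of 74 members against the median log2 ratio of the other genes at 10 CPM or more within 5 Mb, for mdR-H460 against H460 (left) and ldR-H460 against H460 (right). The 5 members to the right of the chromosome 1 gap, in red, lie at the left of both panels, where neighbours had medians from -0.41 to -0.71. Members on other chromosomes lie there too. Neighbours of MRPL45 on chromosome 17 had medians of -0.50 (left) and -0.67 (right), and those of MRPL28 and MRPS34 on chromosome 16 had -0.44 (left).

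Other genes of mitochondrial translation gave a mixed picture. The 6 proteins of the mitochondrial ribosome under other symbols (DAP3, AURKAIP1, CHCHD1, PTCD3, GADD45GIP1 and ICT1) were all within 1.5-fold in every pair. AURKAIP1 was the most abundant, at 466, 503 and 565 CPM. Their median log2 ratio was 0.16 for mdR-H460 against H460, 0.15 for ldR-H460 against H460 and -0.14 for ldR-H460 against mdR-H460.

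Ribosome assembly factors process the rRNA or load proteins on it. None of 21 at 10 CPM or more was at least 1.5-fold apart in mdR-H460 against H460, where 4.61% of all genes were higher and 17.2% lower. In ldR-H460 against H460, 3 of 22 were higher and 1 lower, where 8.57% and 18.9% of all genes were. In ldR-H460 against mdR-H460, 5 of 22 were lower, where 10.1% of all genes were. NOA1, a GTPase of small subunit assembly, had 12.99, 18.8 and 27.6 CPM and was 2.12-fold (1.95 to 2.31) above H460 in ldR-H460. RPUSD4, a pseudouridine synthase acting on mitochondrial rRNA, had 7.45, 9.46 and 12.1 CPM, 1.62-fold (1.44 to 1.82) higher. Both were lowest in H460 and highest in ldR-H460. FASTKD2, which binds the large subunit rRNA, had 15.2, 18.1 and 9.10 CPM, 1.67-fold (1.51 to 1.86) under H460 and 1.99-fold (1.798 to 2.21) under mdR-H460.

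Of the translation factors, 1 passed the 1.5-fold rule, OXA1L, which inserts newly made proteins into the inner membrane. It had 85.4, 112 and 134 CPM and was 1.57-fold (1.52 to 1.62) above H460 in ldR-H460, with 1 of 13 past the rule in that pair, none of 13 in mdR-H460 and none of 12 between the derivatives. Just under the rule were MTFMT, which formylates the initiator tRNA, at 22.7, 29.3 and 33.7 CPM and 1.49-fold (1.39 to 1.59) above H460 in ldR-H460, and the elongation factor TSFM at 64.1, 84.0 and 56.7 CPM and 1.48-fold (1.42 to 1.55) lower in ldR-H460 than in mdR-H460. Of the mitochondrial transcription list, none of 5 was past it in mdR-H460 and 1 of 6, TEFM (14.9, 12.04 and 9.16 CPM), was 1.63-fold (1.46 to 1.81) lower in ldR-H460 against H460. SSBP1, the mitochondrial single-stranded DNA-binding protein, had 467, 640 and 389 CPM. It was 1.65-fold (1.62 to 1.67) lower in ldR-H460 than in mdR-H460, as was TFB2M at 1.52-fold (1.37 to 1.68), 2 of 6. Mitochondrial aminoacyl-tRNA synthetases had 1 of 6 and 1 of 7 lower against H460, in both cases HARS2 (15.2, 9.65 and 8.75 CPM). IARS2, 1 of 5, was 1.53-fold (1.47 to 1.59) higher in ldR-H460 than in mdR-H460. Of all genes, 4.61% were at least 1.5-fold higher and 17.2% lower in mdR-H460 against H460. In ldR-H460 against H460 the shares were 8.57% and 18.9%, and between the derivatives 8.92% and 10.1%. These lists are too short for their counts to be set apart from such shares.

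The mRNAs that the mitochondrial ribosome translates went the other way from most member mRNAs between the derivatives. Protein was not measured. All 13 mitochondrially encoded mRNAs were higher in ldR-H460 than in mdR-H460, with a median of 0.30, where 61 of 74 members were lower. Of all genes 50.4% were higher in that pair. Only MT-ATP6 was at least 1.5-fold higher, at 1.57-fold (1.56 to 1.58), where 8.92% of all genes were. Against H460 the median was 0.08 in mdR-H460 and 0.47 in ldR-H460. At least 1.5-fold higher were 0 and 3 of 13, where 4.61% and 8.57% of all genes were. MT-ATP6 had 3880, 4439 and 6969 CPM. These mRNAs make up the mitochondrially encoded share of UMIs given above, so that share restates their levels. The nuclear complex I list had 1 of 37 (NDUFS7, 1.54-fold higher in ldR-H460 against H460) past the rule and medians of 0.02, 0.02 and -0.01. Cytosolic ribosomal proteins had 0 higher and 1 lower, 0 and 4, and 2 and 0 of 84 in the 3 comparisons, with medians of 0.05, 0.04 and -0.00. In the same comparisons 4.61%, 8.57% and 8.92% of all genes were at least 1.5-fold higher, and 17.2%, 18.9% and 10.1% lower.

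Among factors of respiratory gene transcription, 5 were at 10 CPM or more. None passed the rule in mdR-H460 against H460. MYC, a general growth regulator, had 53.7, 71.0 and 90.7 CPM, and in ldR-H460 was 1.69-fold (1.62 to 1.76) above H460. YY1, whose letters were found in 13 member promoters, had 72.7, 59.9 and 80.6 CPM. GABPB1, a subunit of the ETS factor GABP, had 38.4, 37.2 and 41.3 CPM. The levels of YY1 and GABPB1 stayed within 1.5-fold in every pair. Between the derivatives 1 of 5 passed the rule, PPRC1 at 1.51-fold (1.36 to 1.66) higher in ldR-H460, where 8.92% of all genes were higher.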

How the data were processed

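The members and gene lists were chosen with earlier results of these data known. Per the labels' protocols, cells were passed through a Chromium system (3′ chemistry v2) and read on an Illumina HiSeq. The submitters' processing notes name GRCh38, Seurat 3.0 and Cell Ranger 3.0.2 and give none of them a role. The authors deposited 1 table per culture of UMI counts per gene symbol and cell, whole numbers without normalization, for cells that had passed their quality filter. The most genes detected in any cell were 4987, 4993 and 3998, so the deposited ldR-H460 cells end at a lower limit than those of the other libraries. The alternative with cells under 4000 detected genes sets a like limit in each library. All deposited cells were kept in the main results and no doublet caller was run.

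UMIs were summed per library and divided by its total to give CPM. In each pair, genes whose higher library reached 10 CPM were compared, and a difference of at least 1.5-fold was counted. Ratio intervals are exact and binomial-based at 95%. The interval of the large-to-small ratio is log-normal. Named members are those at least 1.5-fold apart in a pair or from the member median, the 5 highest and 3 lowest, and the MRPS18, MRPS30 and MRPS36 genes. For other lists at most 2 genes each way per pair were named. Genes named for their position (the members on chromosome 1, MRPL24 neighbours) and for their motifs (MRPS34, MRPL36, YY1 and GABPB1), and MRPL45, MRPS10, MRPL16, MRPS5 and MRPL11 as next in order, were chosen after values were seen. Positions come from GENCODE 29, where 77 of 77 members and 15272 of all 18692 symbols matched 1 position, and promoters from RefSeq. Symbols without a matched position are missing from the counts of neighbours and of chromosome 1 genes. Phases were called in scanpy 1.11.5, in each library on its own. TMM factors came from edgeR 4.0.16 and size factors from DESeq2 1.42.0, for scaling only. The ratio script was tested on simulated data. Alternatives covered scaling, weight and depth of cells, cell cycle phase, the level floor, the fold rule and the place of MRPS18A, MRPS30 and MRPS36.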

Additional observations from a re-analysis of the deposited data

How the results depend on the processing

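With 1 library per culture, only counting error has an interval, and the spread between cultures is unknown. No paired analysis was possible because each group has 1 library and no replicate number. Counting pseudogenes gave no value, as no pseudogene symbol met the rule. The cause of each change was not tested.

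The log2 ratio of the summed level in ldR-H460 against H460, -0.05, turned to 0.0701 with TMM, 0.0568 with DESeq2 and 0.0142 with reduced totals (mitochondrially encoded and ribosomal protein UMIs taken out). It was -0.0718 with equal weight per cell, -0.0607 with thinned cells, -0.0143 with cells under 4000 detected genes and -0.30 in G1 cells. In mdR-H460 against H460, 0.10 turned to -0.0639 in G1 cells, and was 0.29 with TMM, 0.28 with DESeq2, 0.12 with those reduced totals, 0.0371 with equal weight, 0.0575 thinned and 0.0819 under 4000 genes. In ldR-H460 against mdR-H460, -0.15 became -0.22 with TMM and DESeq2, -0.10 with reduced totals, -0.11 with equal weight, -0.12 thinned, -0.10 under 4000 genes and -0.24 in G1 cells.

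Scaling cancels in the large-to-small ratio, so TMM, DESeq2 and reduced totals bear on nothing there. In the other 6 alternatives of each pair its log2 difference kept its direction. For ldR-H460 against mdR-H460 it was -0.0895 with equal weight, -0.0858 under 4000 genes, -0.0974 in G1 cells and -0.0840 with MRPS18A and MRPS30 moved. For ldR-H460 against H460 it was -0.0693 with equal weight, and for mdR-H460 against H460 0.0399 in G1 cells.

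Of members at least 1.5-fold higher in mdR-H460 against H460 (0), there were 7 with TMM and DESeq2, 1 at 1 CPM or more and 18 at a log2 difference of at least 0.32 (the lower threshold). In ldR-H460 against H460 (0) there were 2 with TMM and DESeq2, 8 at the lower threshold, and 1 with reduced totals, equal weight, under 4000 genes or at 1 CPM or more. In ldR-H460 against mdR-H460 (0) there was 1 thinned and 1 at the lower threshold. Of members lower in mdR-H460 against H460 (1), 0 were left with TMM and DESeq2 and 3 found in G1 cells. In ldR-H460 against H460 (4) there were 2 with TMM, DESeq2 or reduced totals, 18 in G1 cells and 19 at the lower threshold. In ldR-H460 against mdR-H460 (3) there were 8 with TMM and DESeq2, 6 with equal weight or thinned, 16 in G1 cells and 28 at the lower threshold. Of these alternatives, only the lower threshold and the G1 cells have a share of all genes, given above. For the rest it was not counted.

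Among single members, the log2 ratio of MRPL28 in mdR-H460 against H460, -0.12, turned to 0.0663 with TMM and 0.0583 with DESeq2. MRPL39, 0.25 in that pair, turned to -0.0619 with equal weight per cell. The member median minus the all-gene median in ldR-H460 against H460, 0.05, turned to -0.0818 in G1 cells. MRPL24 stayed below H460 in both derivatives in all 8 alternatives, from -0.80 to -0.51 and from -0.94 to -0.69. MRPL39 and MRPS31 stayed lower, and MRPS27 higher, in ldR-H460 than in both other libraries in all 8.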
